A study of Mus musculus with 3 samples.

Results

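Neurotrophins and the ligands of the glial cell line-derived neurotrophic factor (GDNF) family, with their receptors, were described in stromal cells of mouse visceral fat. The 9 genes were named by symbol and found through their NCBI gene IDs among 27179 genes in the count table: the ligand genes Bdnf, Ntf3, Gdnf, Artn and Nrtn and the receptor genes Ngfr, Ntrk2, Gfra1 and Gfra2. RNA was counted in 3 libraries of adipose stem and progenitor cells from the epididymal fat of naive, untreated wild-type male mice of strain C57B6, aged 12 weeks. After collagenase II digestion, live stromal cells were kept that lacked CD45, CD31 and Ter119 and carried CD140a (the product of Pdgfra), Sca1 (of Ly6a) and PDPN (podoplanin). Fat of 3 mice was used. Whether each library stands for 1 mouse is not stated, so p-values and SDs measure only how these libraries differ, which may partly be technical. All libraries belong to 1 group, with no other treatment, genotype, time or cell type, so levels and their spread are what the design gives.

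Neurotrophins are secreted as precursors, cleaved to their mature form, and bound by receptor tyrosine kinases of the Trk family and by the shared receptor p75, which Ngfr encodes. BDNF and neurotrophin 4 bind TrkB (Ntrk2), and neurotrophin 3 binds mainly TrkC (Ntrk3). Ligands of the GDNF family bind a membrane-anchored GFRα protein, which presents them to the kinase RET. GDNF pairs preferentially with GFRα1, neurturin (Nrtn) with GFRα2, artemin (Artn) with GFRα3 and persephin (Pspn) with GFRα4. In fat, target-derived factors of this kind are known for supporting sympathetic and sensory nerve fibres, and GDNF from stromal cells is known to act on RET of group 2 innate lymphoid cells.

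The libraries held 25060096 to 32813373 counts, and levels are given as CPM, counts per 1000000 with library sizes scaled by the trimmed mean of M-values (TMM). A library with 0 counts of a gene allows up to 3, or 0.0945 to 0.119 CPM. Such limits, and the intervals given, cover counting error only, because PCR copies of 1 molecule are counted as separate reads. The sorted cells carried the RNA of their sort markers, with Pdgfra at 1484 ± 14.5 CPM (mean ± SD, n = 3 libraries here and below) and Pecam1 (CD31) at 1 or 2 counts a library, while Ptprc (CD45) stood at 5.42, 15.8 and 7.68 CPM. Of all genes, 35.0% reached 1 CPM in every library. Endothelial markers reached 1 CPM in every library in 0 of 8 cases, leukocyte markers in 1 of 12, mesothelial markers in 1 of 9, mural markers in 2 of 10, Schwann cell markers in 2 of 11 and neuron markers in 3 of 12. In pooled cells, fewer cells of a type and less RNA per cell cannot be told apart.

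Of the 9 genes, 3 reached 1 CPM in all libraries, which is called detected here: the receptor genes Ntrk2 and Gfra2 and the ligand gene Artn. Among all genes 35.0% were detected and among protein-coding genes 43.7%, so 3 of 9 lay near the background. Receptors were detected in 2 of 4 cases and ligands in 1 of 5. Ntf3 and Ngfr had counts in some libraries and few or none in others. Bdnf, Gdnf, Nrtn and Gfra1 had 8 counts or fewer over all 3 libraries. The median member had a mean of 1.37 CPM, beside 0.108 CPM for the median gene of the table and 1.90 for the median protein-coding gene.

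**Figure D1:**
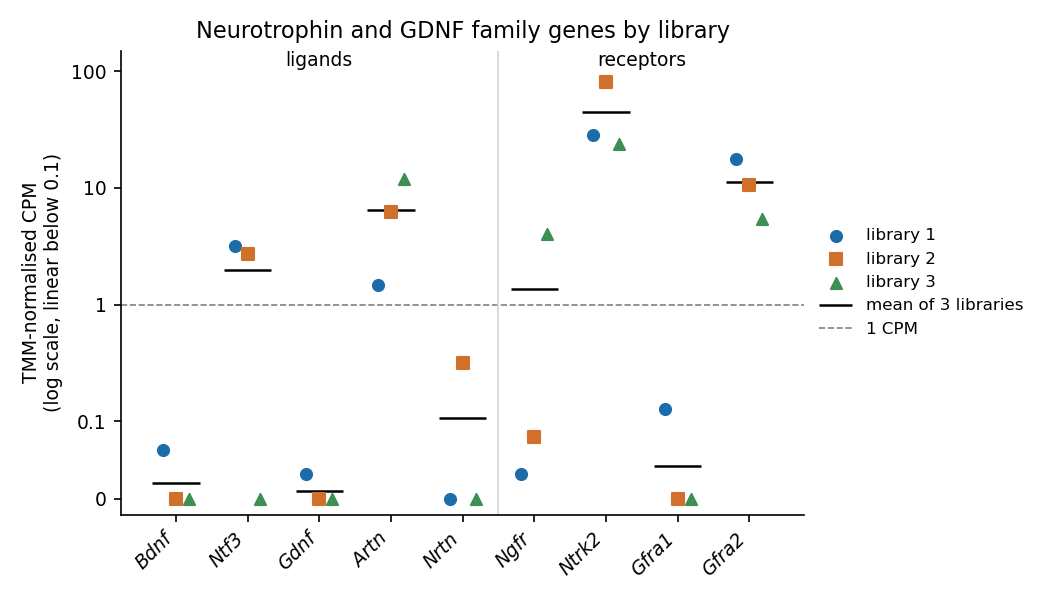
TMM-normalised CPM (vertical axis, log scale, linear below 0.1) of the 5 ligand and 4 receptor genes, with 1 symbol for each library and a black line at the mean. Ntrk2, Gfra2 and Artn lie above the dashed line at 1 CPM in all 3 libraries, Ntf3 falls to 0 in library 3, and Ngfr passes 1 CPM in library 3 alone.

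Promoter windows from RefSeq (GRCm38.p6, 250 bases before to 50 after an annotated start) were read for 8 of the 9 genes, 16 windows in all, with none for Gfra2. A window need not lie at the outermost end of its gene. That of Artn lies wholly within the gene span given below. CpG dinucleotides, common in promoters of broadly used genes, numbered 2 to 28 in these windows, with a median of 12. Bdnf, with several annotated starts, gave more of the 16 windows than any other member, at 2 to 13 CpG each. Ntf3 and Gdnf also gave more than 1 window, so neither this median nor the motif counts below weigh the genes equally. The median was 21 in windows of detected genes and 6 in windows of genes that were not detected. The cAMP response element TGACGTCA was in 0 of the 16 windows and in 1.79% of all 32851 windows, and the AP-1 motif TGACTCA, sought on both strands, in 0 of 16 and in 5.20%. Shown 5′ to 3′ with each CpG in capitals are the windows of Ntrk2 (23 CpG, chr13:58806319-58806618, plus strand) and Artn (16 CpG, chr4:117929714-117930013, minus strand), the detected members with a window, and of Nrtn (28 CpG, chr17:56757499-56757798, minus strand), which had the most CpG of all member windows but only 8 counts.
Ntrk2: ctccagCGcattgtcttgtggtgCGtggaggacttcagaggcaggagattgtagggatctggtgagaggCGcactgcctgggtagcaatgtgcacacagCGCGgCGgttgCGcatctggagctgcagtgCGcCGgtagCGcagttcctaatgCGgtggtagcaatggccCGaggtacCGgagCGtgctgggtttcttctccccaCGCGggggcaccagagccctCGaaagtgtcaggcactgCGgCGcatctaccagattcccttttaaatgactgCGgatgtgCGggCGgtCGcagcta
Artn: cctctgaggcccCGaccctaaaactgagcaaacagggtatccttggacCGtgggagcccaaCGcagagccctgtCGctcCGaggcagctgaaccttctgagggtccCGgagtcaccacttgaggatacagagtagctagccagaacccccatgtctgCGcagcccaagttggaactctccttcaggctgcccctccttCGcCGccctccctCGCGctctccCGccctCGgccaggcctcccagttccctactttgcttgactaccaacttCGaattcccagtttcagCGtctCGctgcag
Nrtn: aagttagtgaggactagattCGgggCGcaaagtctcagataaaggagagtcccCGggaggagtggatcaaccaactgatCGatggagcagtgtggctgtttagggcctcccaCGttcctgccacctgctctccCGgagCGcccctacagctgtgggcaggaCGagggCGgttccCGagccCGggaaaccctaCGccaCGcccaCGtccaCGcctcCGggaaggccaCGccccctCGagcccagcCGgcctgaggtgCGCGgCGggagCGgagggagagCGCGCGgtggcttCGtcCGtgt

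Ntrk2, which encodes TrkB (gene 18212, chromosome 13, 58806472 to 59133970, GRCm38), had 901, 2045 and 666 counts in libraries 1, 2 and 3, or 28.4, 81.0 and 23.8 CPM. Library 2 stood above the other two, which lay close together, and the highest value was 3.41 times the lowest. The mean was 44.4 ± 31.8 CPM, which ranked 3710 among all genes, and it was 26.1 CPM without library 2. Set against the other libraries, library 2 was higher by 1.64 ± 0.60 on the log2 scale (SE), with an unadjusted p of 0.018 and an adjusted p of 0.96 in edgeR's quasi-likelihood test. GENCODE annotates 2 consensus coding forms of Ntrk2, of 821 and 476 amino acids. Truncated TrkB is known to lack the kinase domain, and counts per gene do not separate the forms.

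Beside Ntrk2, markers of other cells varied between libraries. The 10 mural cell markers summed to 23.9, 100.5 and 41.6 CPM, of which the sulfonylurea receptor gene Abcc9 gave 12.9, 85.4 and 16.6. Without Abcc9 the other 9 summed to 11.0, 15.2 and 24.9 CPM, highest in library 3. Kcnj8 (69, 111 and 0 counts) and Acta2 (18, 60 and 32) were highest in library 2, as Abcc9 was. Notch3 (46, 10 and 71 counts) and Cspg4 (54, 1 and 145) were lowest there. Des (163, 199 and 423) was highest in library 3, and the pericyte markers Rgs5 and Higd1b had 0 counts throughout. The 12 leukocyte markers summed to 6.71, 19.7 and 7.86 CPM, of which Ptprc gave 5.42, 15.8 and 7.68. Csf1r (2, 55 and 4 counts) and Cd68 (7, 43 and 0) were highest in library 2, and Lyz2 (25, 0 and 0) in library 1. Lck and C1qb had 0 counts in every library. The part of these mural and leukocyte markers in the level of Ntrk2 was not tested.

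Gfra2, the neurturin co-receptor gene (gene 14586, chromosome 14, 70890107 to 70979840), had 564, 269 and 153 counts, or 17.8, 10.7 and 5.46 CPM. It was highest in library 1 and lowest in library 3, with a ratio of 3.25 between them and a mean of 11.3 ± 6.18 CPM. Gfra1, the GDNF co-receptor gene on chromosome 19, had 4, 0 and 0 counts, and the 95% exact Poisson interval of that sum was 1.09 to 10.2 counts. Gfra3 and Gfra4, the co-receptor genes for artemin and persephin, had 1 count each over the 3 libraries, so nearly all GFRα counts were those of Gfra2. Ret, the kinase gene that these co-receptors share and which is no member of the 9, was detected at 4.69, 15.4 and 10.7 CPM, with the lowest value in library 1, where Gfra2 was highest.

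Artn, the artemin gene (gene 11876, chromosome 4, 117925908 to 117930795), was the ligand detected in every library. It had 47, 158 and 331 counts, or 1.48, 6.26 and 11.8 CPM. Library 1 lay just above the detection threshold and library 3 stood 7.98 times higher. The mean was 6.52 ± 5.18 CPM, or 3.87 without library 3 and 9.04 without library 1. St3gal3 is the nearest annotated neighbour and does not overlap Artn in the RefSeq annotation.

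Ntf3, which encodes neurotrophin 3 (gene 18205, chromosome 6), had 100, 69 and 0 counts, or 3.15, 2.73 and 0 CPM. Libraries 1 and 2 lay close together, and the 0 in library 3 allows a level of up to 0.107 CPM. In edgeR's quasi-likelihood test of library 3 against the others, Ntf3 had an unadjusted p of 0.066 and an adjusted p of 0.96. Its main receptor gene Ntrk3 showed 0.189, 6.10 and 6.18 CPM, low in library 1 rather than in library 3.

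Ngfr, which encodes p75 (gene 18053, chromosome 11), had 1, 2 and 112 counts, so nearly all of its reads came from library 3. There it reached 4.0 CPM, beside 0.0315 and 0.0793 CPM in libraries 1 and 2, and its mean was 1.37 ± 2.28 CPM, or 0.0554 without library 3. The unadjusted p for library 3 was 0.083 and the adjusted p 0.96 (edgeR's quasi-likelihood test). Ngfr is known as a marker of Schwann cells as well as of some stromal cells. The 11 Schwann cell markers summed to 8.03, 10.6 and 18.7 CPM, and Mbp and Prx were highest in library 3, with 49, 129 and 356 counts for Mbp and 0, 1 and 80 for Prx. S100b went the other way, with 195, 131 and 42 counts. The lineage factor Sox10 and the cadherin gene Cdh19 had 0 counts in every library. The part of these markers in the level of Ngfr was not tested.

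The remaining ligands had few counts. Bdnf (chromosome 2) had 2, 0 and 0 counts, a sum of 2 with a 95% exact Poisson interval of 0.242 to 7.22 counts. Gdnf (chromosome 15) had 1, 0 and 0 counts, with an interval of 0.0253 to 5.57. Nrtn (chromosome 17) had 0, 8 and 0 counts, all in library 2 at 0.317 CPM, with an interval of 3.45 to 15.8. A count of 0 allows levels of up to 0.0945, 0.119 and 0.107 CPM in libraries 1, 2 and 3 at this depth.

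Pairs of a ligand gene with its preferred receptor gene were read for the 6 pairs that hold at least 1 of the 9 members. Ligand and receptor were both detected in 0 of these 6 pairs, or in 1, Ntf3 with Ntrk3, when 2 of 3 libraries sufficed. Taken singly, 35.0% of all and 43.7% of protein-coding genes were detected, or 40.0% of all genes when 2 of 3 libraries sufficed. No share over other gene pairs was computed, so the pair counts are a description only. The receptor alone was detected in 3 pairs, Ntrk2 with Bdnf or with Ntf5 (neurotrophin 4), and Gfra2 with Nrtn. The ligand alone was detected in 1 pair, Artn with Gfra3. Neither was detected in 2 pairs, Ntf3 with Ntrk3 and Gdnf with Gfra1.

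Of 8 other ligand and receptor genes of both families, 2 were detected, Ret and Gdf15, beside 35.0% of all and 43.7% of protein-coding genes. Gdf15, a distant ligand that signals through GFRAL and RET, was at 1.10, 2.69 and 2.32 CPM, while its receptor gene Gfral had 3 counts in all. Ntrk3, at 6, 154 and 173 counts, missed the threshold in library 1 alone. Ntf5 had 0, 5 and 1 counts and the persephin gene Pspn had 0 in every library.

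**Figure D2:**
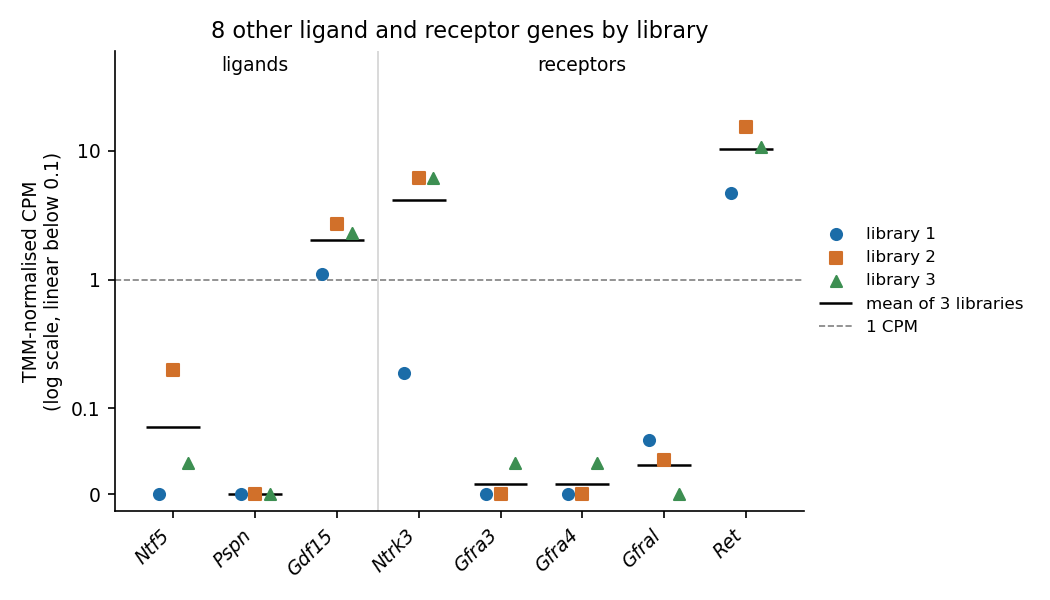
TMM-normalised CPM (vertical axis, log scale, linear below 0.1) of 8 other ligand and receptor genes of both families, with 1 symbol for each library and a black line at the mean. Ret and Gdf15 lie above the dashed line at 1 CPM in all 3 libraries, and Ntrk3 in libraries 2 and 3, at 6.10 and 6.18 CPM.

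Levels of different genes were compared per kilobase of exon, since a long transcript yields more reads. By mean CPM per kilobase the order was Gfra2 at 3.19 ± 1.75, Artn at 2.71 ± 2.15, Ntrk2 at 2.302 ± 1.65, Ntf3 at 1.14 ± 0.998 and Ngfr at 0.398 ± 0.661. None of the 4 neighbouring pairs in this order differed by more than the SD of its difference over libraries. On the log2(CPM per kilobase + 0.5) scale, Gfra2 exceeded Artn by 0.36 ± 1.86, with Gfra2 higher in libraries 1 and 2 (two-sided exact permutation test by sign flips, p = 0.75). Artn exceeded Ntrk2 by 0.07 ± 1.36, Ntrk2 exceeded Ntf3 by 0.90 ± 1.04 and Ntf3 exceeded Ngfr by 0.82 ± 2.21 (same exact permutation test, p = 1, 0.5 and 0.5). All 4 adjusted p were 1, and 3 libraries allow no p below 0.25. Artn stood above Ntrk2 only in library 3, and per kilobase of the longest transcript the mean difference turned to -0.77, because the union of annotated Ntrk2 exons is 19292 bases long.

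**Figure D3:**
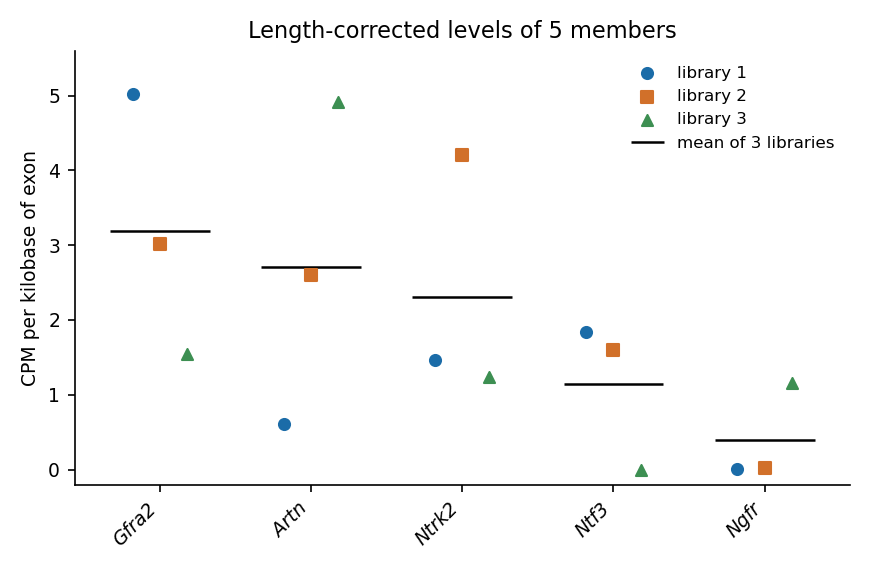
CPM per kilobase of exon (vertical axis) of the 5 members with more than 20 counts in all, ordered by their mean (black line), with 1 symbol for each library. A different member leads in each library: Gfra2 at 5.02 in library 1, Ntrk2 at 4.20 in library 2 and Artn at 4.92 in library 3.

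The members' spread between libraries was set beside that of all genes of like level. The coefficient of variation (SD over mean) was 71.6% for Ntrk2, above the 75th percentile of 52.4% among the 2642 genes with a mean of 20 to 50 CPM. Gfra2 at 54.7% and Artn at 79.4% lay between the median and the 75th percentile of their level, 48.5% to 68.5% for 10 to 20 CPM and 66.5% to 91.0% for 5 to 10 CPM. Ngfr at 166% and Ntf3 at 87.2% lay between the 25th and the 75th percentile for 1 to 2 CPM, 86.7% to 168%. At that level 67.1% of 865 genes had a library with 3 counts or fewer, as Ntf3 and Ngfr had, so such a gap was common there. A library at 0, as Ntf3 had, was found in 42.7% of them. Ntf3, with a mean of 1.96 CPM, lay near the next range, 2 to 5 CPM. There the shares were 43.4% and 25.4%.

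**Figure D4:**
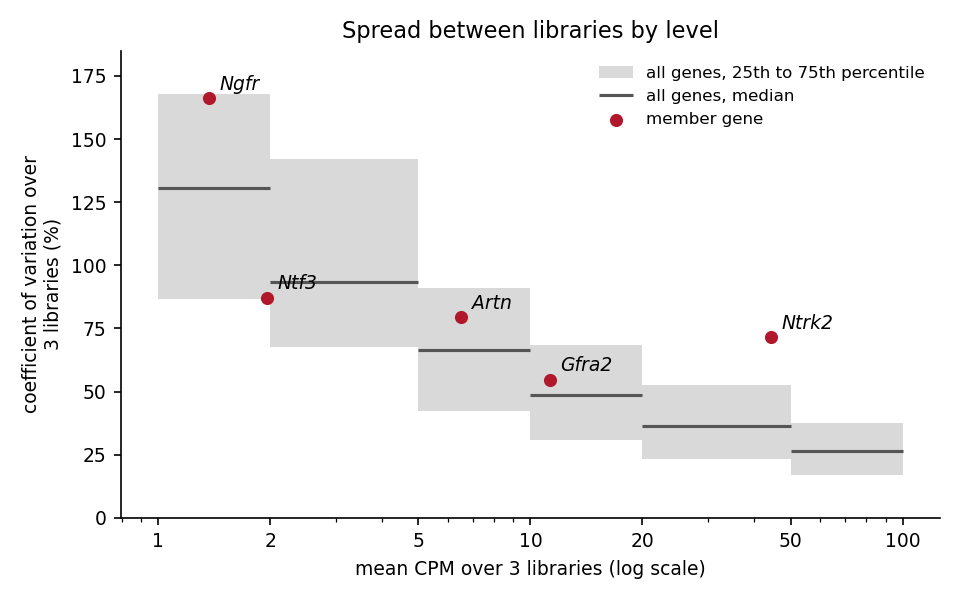
Coefficient of variation over 3 libraries (vertical axis, %) against mean CPM (horizontal axis, log scale), with the median (line) and the 25th to 75th percentile (grey) of all genes in 6 ranges of level and 5 members as red points. Ntrk2, at 71.6%, is the only one of the 5 above the grey range of its level.

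With each library tested against the other two, 0 of the 5 members tested were called at an adjusted p under 0.05, beside 0.00% of 13289 genes in each of the 3 comparisons (edgeR's quasi-likelihood test). At an unadjusted p under 0.05, 1 of the 15 member tests passed, that of Ntrk2 in library 2, beside 4.63% of all 39867 tests. For Ntf3, the log2 difference of library 3 from the others was -8.81 in DESeq2's fit. It was -9.38 in edgeR when 10 counts were required in at least 2 libraries. Ntf3 had 0 counts in library 3, so neither value is a measured ratio. DESeq2's Wald test called 497 of 39867 (1.25%) and 0 for the members. The other 4 members had fewer than 10 counts in every library and were tested only in the setting with no filter on counts, given below.

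Of the co-receptors and partners, 4 of 14 were detected (28.6%, beside 35.0% of all and 43.7% of protein-coding genes). Lrig2, Lrig1 and Lrig3, which encode leucine-rich repeat membrane proteins that modulate receptor tyrosine kinases, RET among them for Lrig1, were at 39.2 ± 16.8, 26.3 ± 20.2 and 13.5 ± 8.83 CPM. Lrig1 was at 41.6, 3.45 and 34.0 CPM and Lrig3 at 20.7, 3.65 and 16.2 CPM, both lowest in library 2. Lrig2, at 29.7, 58.6 and 29.4 CPM, was highest in library 2, as Ntrk2 was. A link of these genes to the level of Ntrk2 was not tested. Sdc3, a heparan sulphate proteoglycan that binds GDNF family ligands, was at 6.08, 1.07 and 6.89 CPM. Sort1, which encodes sortilin, the partner of p75 in binding pro-neurotrophins, had 7, 0 and 1 counts. Ncam1, an alternative GDNF receptor, was at 0.630, 4.003 and 0.107 CPM, and Rtn4r, a partner of p75, had 0 counts.

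Genes that process pro-neurotrophins were detected in 6 of 9 cases, beside 35.0% of all and 43.7% of protein-coding genes. The convertase genes Pcsk6 and Pcsk5 stood at 412 ± 96.0 and 325 ± 64.2 CPM, and Furin and Pcsk7 at 13.8 ± 2.69 and 10.6 ± 2.26. Plat, the tissue plasminogen activator gene, stood at 463 ± 47.8 CPM, but Plg, the gene of its substrate plasminogen, had 2 counts. Mmp3 was at 143 ± 17.8 CPM, while Mmp7 had 3 counts and Mmp9 was at 6.65, 0.0396 and 0 CPM. These proteases also act on many other substrates.

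Receptor adaptors and signalling genes were detected in 19 of 23 cases, beside 35.0% of all and 43.7% of protein-coding genes. Crk, Maged1 (which binds p75), Kidins220 (a Trk and p75 scaffold) and Arhgdia led at 280 ± 27.4, 189 ± 41.3, 144 ± 33.3 and 102 ± 18.5 CPM. Shc1 and Frs2, which encode adaptors that dock on active Trk receptors and RET, stood at 60.9 ± 15.3 and 46.6 ± 24.2 CPM. Shc3, the neuronal Shc form, had 1 count and Sh2b2 had 0. Most of these adaptors serve many receptors.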

How the data were processed

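RNA from 3 libraries of sorted adipose stem and progenitor cells was amplified with Clontech's SMARTer kit for ultra low input (V4), per the labels' protocols. STAR 2.3.0, CASAVA 1.8.2 and build mm10 are named in the submitters' processing notes. No source used here names the counting tool, annotation or strand setting, so reads of a gene and of an antisense partner cannot be told apart. The deposited values are whole-number counts per NCBI gene ID, not normalized by the authors. Symbols and coordinates came from RefSeq (GRCm38.p6), which named 25275 of 27179 IDs.

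CPM used TMM library sizes (edgeR 4.0.16, R 4.3.3). Exon lengths were the union of GENCODE M21 exons. Log2 values used a pseudocount of 0.5. By edgeR's quasi-likelihood test, each library was compared with the rest for genes with 10 counts or more in at least 1 library, with Benjamini-Hochberg adjustment over all genes and libraries. The single library is taken to vary like the rest. The test was tried on simulated data, with changes set in library 1 only and in genes above 10 CPM. Artn, Ntf3 and Ngfr had means below that level, so the simulation does not cover changes in them. DESeq2 1.42.0 gave alternatives. Python 3.11.15, numpy 2.4.6, scipy 1.17.1, pandas 2.3.3 and matplotlib 3.10.9 were used. The members and lists were chosen with earlier results of these data known. All members were named. Of the other lists, genes were to be named first by the 4 highest mean CPM and by 0 counts, but other named genes were chosen after their values were seen, and not every gene at 0 is named. A few genes of the families and marker lists are not reported here and were left out of the lists. The counts given cover all other genes of each list that were in the count table, named or not. Of 24 listed receptor adaptors and signalling genes, 23 were in it.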

Additional observations from a re-analysis of the deposited data

How the results depend on the processing

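The count of 3 detected members was 3 at 0.5 CPM, 2 at 5 CPM, 4 when 2 of 3 libraries sufficed, 3 to 4 with each library left out in turn, and 1 at 20 CPM, a threshold added after the data were seen. Of the 8 other family genes, 2 were detected, or 0 at 5 CPM. Of the 14 co-receptors and partners, 4 were detected, or 1 at 5 CPM and 8 when 2 of 3 libraries sufficed. The share of all genes was 36.6% at 0.5 CPM, 28.3% at 5 CPM and 17.4% at 20 CPM. It was 40.0% when 2 of 3 libraries sufficed and 36.5% to 36.8% with a library left out. Per kilobase, Gfra2 minus Artn ranged from -0.61 to 1.24 with a library left out. Artn minus Ntrk2 ranged from -0.71 to 0.52, and was -0.77 per kilobase of the longest transcript and -2.81 with no length correction, which follows from the long exons of Ntrk2. The members' order is thus not settled by these libraries. Mean CPM of the members moved by less than 1 SD with DESeq2 size factors or with total counts as library sizes. Leaving out 1 of 3 libraries cannot move a mean by 1 SD, so this rule says nothing about those settings. With a library left out, mean CPM ranged from 0.0554 to 2.04 for Ngfr and from 26.1 to 54.7 for Ntrk2. The lower end was 0 for Bdnf, Gdnf, Gfra1 and Nrtn. Over all genes, edgeR called 0 tests, or 0 with DESeq2 size factors, 0 with 10 counts in at least 2 libraries and 64 with no filter, and DESeq2's Wald test called 497. Members called numbered 0 in each. Leaving out a library leaves that test no residual degrees of freedom, so it was not run. No paired analysis was possible because the series has 1 group.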

Other observations

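Secreted factors outside these families that are known to act on neurons were counted from a list added after the data were seen. Of these, 6 of 13 were detected, beside 35.0% of all and 43.7% of protein-coding genes. Manf, which encodes a factor resident in the endoplasmic reticulum and secreted under stress, stood at 397, 386 and 511 CPM. Metrnl, which encodes a secreted protein related to meteorin, stood at 148, 193 and 226 CPM, and Gas6, a ligand of TAM receptor kinases, at 66.7, 51.3 and 84.7. Nenf, the neudesin gene, was at 21.8 ± 4.91 CPM. The midkine gene Mdk was at 14.9 ± 3.42 CPM, while Ptn, which encodes the related pleiotrophin, had 0 counts in every library. Nrg1, Cntf and Vgf also had 0 counts in every library.

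Of 12 neuron markers, Uchl1, Stmn2 and Tubb3 were detected, at 43.5, 50.5 and 84.4 CPM, at 25.5, 13.4 and 22.6 CPM and at 7.72, 1.90 and 2.39 CPM. Th, Nefl and Elavl4 had 0 counts in every library. Rbfox3 had 21, 4 and 55 counts, and Snap25 and Prph had 5 and 3 counts in all.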
